A study of Mus musculus with 48 samples.

Results

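The cytosolic ribosome is built from a large subunit and a small subunit, each an assembly of ribosomal RNA and of proteins that are named Rpl for the large subunit and Rps for the small one. Their messenger RNAs are known for a run of pyrimidines at the 5′ end, the TOP motif, through which the growth kinase mTORC1 controls their translation. In mouse liver, translation of these messages is known to follow the daily feeding cycle, so that a change in ribosomal protein output need not pass through a change in message level.

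The genes described here are the rows of the count table with an Rpl or Rps symbol of the cytosolic ribosome, pseudogenes and the Rps6k kinases left out, and a mean of at least 5 CPM, that is counts scaled to library size, over all libraries. Of 22354 rows in the table, 79 had such a symbol and 77 reached the minimum, 45 of the large subunit and 32 of the small one. All 77 passed the count filter, which left 13646 genes to test. The 2 rows under the minimum were paralogs with tissue-restricted expression, Rpl3l at 0.0871 CPM and Rpl39l at 0.0242 CPM. The 3 members just above it were far from it, with Rps13 at 122 CPM, Rplp2 at 140 CPM and Rpl27 at 146 CPM.

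The libraries are poly-A RNA-seq of liver from C57BL/6 mice, 4 to 6 months of age per the labels, in 2 genotypes. Knockout mice (KO) carried floxed Bmal1 alleles and an aP2-Cre transgene, whose promoter is that of the adipocyte lipid-binding gene Fabp4, and wild-type mice (WT) were their littermate controls. Bmal1 encodes a transcription factor of the circadian clock and is listed in the table under its other symbol, Arntl. All animals were kept for 36 h in constant darkness before livers were taken every 4 h over 20 h, at times labelled 0, 4, 8, 12, 16 and 20 h. There were 25 WT and 23 KO libraries, 4 per genotype and time except 5 WT and 3 KO libraries at 16 h.

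The library totals without Alb lay between 12841969 and 13009797 counts, a narrower range than sequencing usually gives, and no source used here says how it came about. Mean levels of Arntl in the 6 WT groups spanned 2.01 CPM (12 h) to 37.0 CPM (0 h). The KO groups spanned 3.67 CPM (8 h) to 32.4 CPM (0 h), a similar range, but the means at matched times were not all alike. At 4 h they were 21.1 CPM in WT and 9.53 CPM in KO, and at 16 h 16.2 CPM in WT and 26.3 CPM in KO. A gene-level count does not separate the floxed exon from the rest of the message. The labels name the cell type as adipocyte, whereas 10 hepatocyte markers summed to between 36484 and 77961 CPM in every library and 8 adipocyte markers to between 6.22 and 83.6 CPM. The labels call the mice male, whereas Xist had between 3029 and 13969 counts in every library while Kdm5d, Uty and Eif2s3y of the Y chromosome never had more than 1. Earlier results of these data had shown transcripts of other tissues, or a profile that stands apart, in WT 0 h replicate 3, KO 0 h replicate 2 and KO 16 h replicate 2, so counts are also given without these 3 libraries.

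The start of these genes is shown first, because the pyrimidine run is the feature by which ribosomal protein messages are recognised. RefSeq promoter windows of 250 bases before to 50 bases after an annotated start (build GRCm38.p6) matched 56 of the 77 members by symbol. The run sought was at least 8 unbroken C or T that begin with C, on the gene's own strand, within 50 bases of the start on either side. A run that crossed this limit was counted by the part inside it. Such a run stood in 48 of these 56 genes (85.7%), against 32% of the 27025 genes with a window. The following windows of 30 bases show that run in capitals, 5′ to 3′, for Rps6, the ribosomal target of the S6 kinases, for Rps26 and Rps18, which are described below, for Rps23, which moved closely with the rest, and for Rplp2, which did not.
Rps6: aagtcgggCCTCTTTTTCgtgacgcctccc
Rps26: cgccggatCCTCTTTCgagtcttggctcca
Rps18: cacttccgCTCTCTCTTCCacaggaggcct
Rps23: tgggtccttcctgcaCCTCCTCTCTCTTTC
Rplp2: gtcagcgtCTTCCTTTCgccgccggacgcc
In that order they lie at chr4:86857347-86857376 on the minus strand, chr10:128626481-128626510 on the minus strand, chr17:33955646-33955675 on the minus strand, chr13:90923142-90923171 on the plus strand and chr7:141447639-141447668 on the plus strand. The run begins 1 base before the annotated start in Rps6 and at base 36 of the transcript in Rps23, so the annotated starts do not all fall at the run itself. The printed run of Rps23 ends at base 50, where the search stopped, and may be longer than shown.

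Further words were searched on both strands of the whole window. CCGGAAG, a core word of the ETS factors, stood in 23 of 56 members (41.1%) and in 9.93% of all genes with a window. CACGTG, the E-box word to which the BMAL1 and CLOCK pair is known to bind, stood in 6 of 56 members (10.7%) and in 8.09% of all genes with a window. A pair of the members that hold it near their start are shown with the E-box in capitals.
Rpl19: cagaggacCACGTGaccaaacgccctcact
Rpl23: ggtccggtCACGTGgctgagtgggcggggc
The Rpl19 window is chr11:98026683-98026712 on the plus strand and the Rpl23 window is chr11:97782421-97782450 on the minus strand. Across times, the fitted KO minus WT log2 change was 0.03 for Rpl19 and 0.10 for Rpl23, with adjusted p = 0.857 and adjusted p = 0.591 in edgeR. A match is a description of letters in a window and says nothing of binding in these livers.

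Together the 77 genes took between 2.00% and 4.06% of all counts in a library, with a median of 2.70%. In WT the group mean was lowest at 0 h, 2.35% ± 0.271 (SD, n = 4), and highest at 8 h, 3.40% ± 0.528 (SD, n = 4). In KO it was lowest at 0 h as well, 2.22% ± 0.244 (SD, n = 4), and stood at 3.14% ± 0.346 (SD, n = 4) at 4 h and 3.16% ± 0.277 (SD, n = 4) at 12 h. The widest group was KO at 16 h, 2.84% ± 0.947 (SD, n = 3), in which replicate 3 alone reached 3.91%. The genotypes overlapped at every time. In bulk tissue, a change in the number of cells of a type and a change in RNA per cell cannot be told apart.

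**Figure D1:**
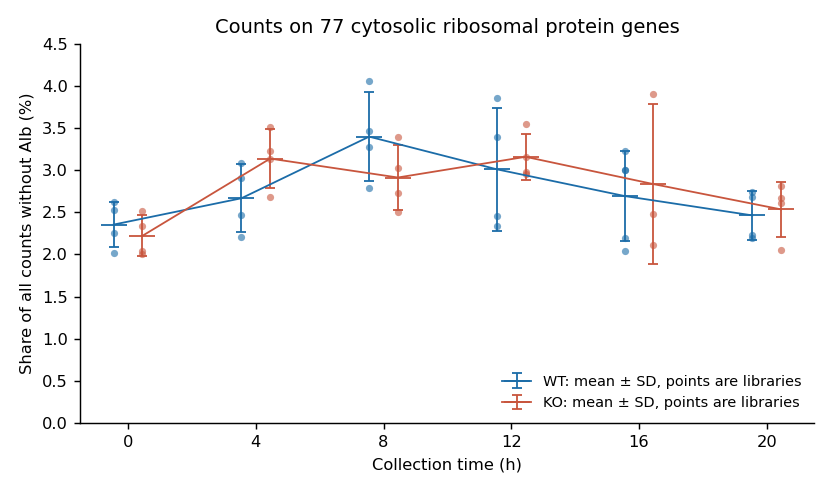
Share of each library's counts (percent, Alb left out, vertical axis) that fell on the 77 ribosomal protein genes, by collection time in hours (horizontal axis); points are libraries, bars are group means with SD. The WT mean is 2.35% at 0 h and 3.40% at 8 h, and the genotypes overlap at every time.

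Levels differed between members by less than an order of magnitude. On the CPM scale, which is not corrected for length, the highest means were those of Rpl4 (838 CPM), Rpl10 (798 CPM), Rpsa (730 CPM), Rpl13a (715 CPM) and Rpl7 (701 CPM). The lowest were those of Rps13 (122 CPM), Rplp2 (140 CPM), Rpl27 (146 CPM), Rps28 (154 CPM) and Rpl39 (161 CPM). Per kilobase of coding sequence the order changed, with Rps29 highest at 1875 CPM per kilobase and Rplp1 next at 1582 CPM per kilobase, while Rps13 stayed lowest at 269.5 CPM per kilobase. Coding sequences of the members ran from 153 to 1257 nucleotides with a median of 456, against a median of 1377 over the genes tested. Rpl4 and Rpl3, both on the large subunit, have the longest.

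Several rows carry limits of their own. The table also holds 126 rows with a ribosomal protein pseudogene symbol, whose sequences can resemble the messages closely, and these had 0.26% as many counts as the members. Rps13-ps1 was the largest, with 8987 counts over all libraries or 11.9% of those of Rps13, so the level of Rps13 is uncertain. The Rpl24 row spans 42639 bases (chr16:55966388-56009026 in mm9) and bears a gene ID that GENCODE M21 gives to Zbtb11, so its counts may include reads of both genes. The Rpl11 row spans 25164 bases where the median member spans 3243, and the sources used here do not say how reads of overlapping genes or of pseudogene copies were assigned.

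Averaged over the 6 times, no ribosomal protein gene was called as different between KO and WT. With edgeR's quasi-likelihood test and Benjamini-Hochberg adjustment over all genes at 0.05, 0 of 77 members were called, where 1.4% of all genes tested were called. At an unadjusted p under 0.05 the count was 0 of 77 as well, against 17.1% of all genes, and DESeq2 called 0 by either rule. The fitted log2 change was positive for 56 members and negative for 21, with a median of 0.05 beside a median of -0.00 over all genes (range over the members -0.21 to 0.17). The standard error of a member's change had a median of 0.09, so differences of the size seen here were of the order of their own error.

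The stalk proteins P0, P1 and P2 form the lateral protuberance of the large subunit that recruits the elongation factors. Their genes gave the lowest fitted changes but not as a group. Rplp2 (chr7:148633269-148637484 in mm9) had a log2 change of -0.21 ± 0.15 (SE) and adjusted p = 0.468 in edgeR, and Rplp0 (chr5:116009476-116013736) had -0.21 ± 0.11 (SE) and adjusted p = 0.341 in edgeR. Rplp1 had a log2 change of 0.00 ± 0.07 (SE). After these the lowest changes were those of Rpl8 (-0.15), Rpl28 (-0.13) and Rps13 (-0.12), none with an adjusted p under 0.352 in edgeR.

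At the other end stood Rpl22 (chr4:151699851-151708180), a protein of the large subunit also known for its part in lymphocyte development, with a log2 change of 0.17 ± 0.09 (SE) and adjusted p = 0.341 in edgeR. Rpl21 (0.15), Rpl15 (0.15) and Rpl39 (0.15) were among those that followed. The Rpl22 paralog Rpl22l1, which the rule does not take, had a mean of 35.0 CPM against 226 CPM for Rpl22, and a log2 change of 0.15 with adjusted p = 0.521 in edgeR. Rpl39 is the shortest member, and its fitted change turned to -0.11 once each library's dependence on GC content and coding length was taken out.

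Members with further roles and members with paralogs were not called either. Rpl5 and Rpl11, which with the 5S RNA form the particle that can bind MDM2 and stabilise p53, had log2 changes of 0.15 ± 0.11 (SE) and 0.13 ± 0.11 (SE). Rps27a, made as a fusion with ubiquitin, had 0.11 ± 0.11 (SE), and Rpsa, which is also known as a laminin receptor, had 0.00 ± 0.07 (SE). Rps6 had -0.03 ± 0.06 (SE). Among the paralog pairs, Rps27 and Rps27l had 0.11 and 0.14, Rpl7 and Rpl7l1 0.14 and 0.06, Rpl36a and Rpl36al 0.11 and 0.02, and no row named Rpl10l was analysed here beside Rpl10 (0.05). None of these 12 genes was called in edgeR.

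Single times gave no call among the members either. In the edgeR contrasts, 0 of 77 members were called at 0 h (0.0147% of all genes), 4 h (0.0366%), 8 h (0%), 12 h (0%), 16 h (0.022%) and 20 h (0%), and DESeq2 called 0 at each time. At an unadjusted p under 0.05 the edgeR counts were 0 at 0 h (5.53% of all genes), 0 at 8 h (1.82%), 0 at 12 h (4.4%), 2 at 16 h (6.65%), both lower in KO, and 0 at 20 h (1.84%). The median change of the members was -0.10 at 0 h, -0.18 at 8 h, 0.06 at 12 h, 0.06 at 16 h and 0.09 at 20 h. No member had the same sign at all 6 times. The 16 h median rested on KO 16 h replicate 3, without which it was -0.26, and it was 0.24 without KO 16 h replicate 1.

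The 4 h contrast stood apart in size. There 60 of 77 members were higher in KO, with a median log2 change of 0.36 beside -0.01 over all genes, and 32 members (41.6%) had an unadjusted p under 0.05, where 23.3% of all genes did. Of these 32, 31 were higher in KO, 20 belonged to the large subunit and 12 to the small one, and DESeq2 gave 35. The lowest adjusted p of a member in edgeR was 0.144, that of Rpl23. These counts moved with single libraries. Without KO 4 h replicate 1, 23 members (29.9%) were called, where 24.6% of all genes were. The 32 at an unadjusted p under 0.05 became 0 without KO 4 h replicate 3, 8 without WT 4 h replicate 2, 12 without WT 4 h replicate 1, 17 without KO 4 h replicate 2 and 18 without KO 4 h replicate 4. Without scaling factors the count was 12. For these counts and that of DESeq2 the share of all genes is not given here, so the movements may not be particular to the members.

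Rpl23 (chr11:97638841-97643751), the large-subunit protein on which the anti-association factor eIF6 sits, had 447, 437, 498 and 531 CPM in the WT libraries at 4 h. The KO libraries had 515, 758, 924 and 730 CPM. Replicate 1 of KO lay inside the WT range and the other 3 above it, for a log2 change of 0.61 ± 0.23 (SE). Rps25, on the head of the small subunit, had 254, 254, 330 and 357 CPM in WT and 272, 493, 642 and 549 CPM in KO, again with KO replicate 1 inside the WT range. The largest fitted change at 4 h was that of Rps27l, 0.76 ± 0.30 (SE), a paralog of Rps27 known to be induced by p53.

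Complete separation at 4 h was rare among the members and among all genes alike. Rpl17 and Rpl37 were the 2 of 77 (2.6%) whose KO libraries all lay above all WT libraries, where 3.81% of all genes did so. Rpl37 had 225, 204, 237 and 251 CPM in WT and 252, 335, 315 and 280 CPM in KO, so the groups were less than 1 CPM apart at their nearest. Rplp0 went the other way, with 460, 324, 568 and 604 CPM in WT and 527, 305, 229 and 259 CPM in KO, and a log2 change of -0.57 ± 0.27 (SE). Its groups overlapped through KO replicate 1 alone, and the other 3 KO libraries lay under all WT libraries.

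**Figure D2:**
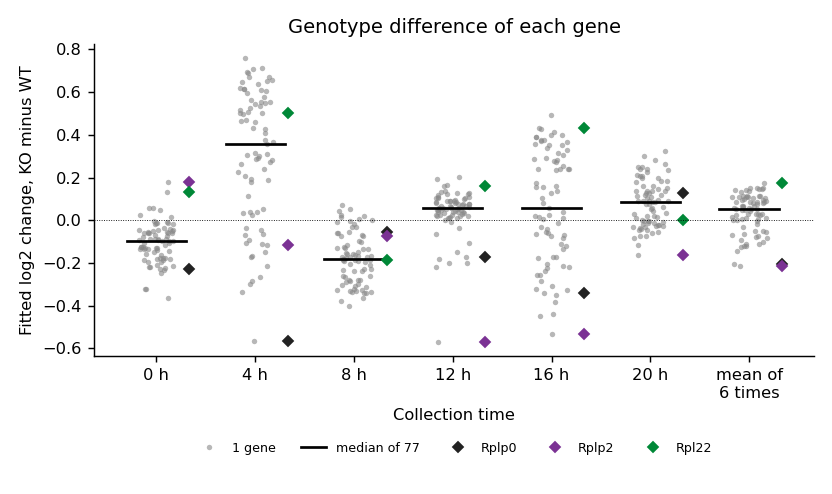
Fitted log2 change, KO minus WT (vertical axis), of each of the 77 genes (grey points, Rplp0, Rplp2 and Rpl22 marked again as diamonds) at each collection time and averaged over the 6 times (horizontal axis); black bars are medians. The median is 0.36 at 4 h and between -0.18 and 0.09 at the other times, and Rplp0 is lowest at 4 h.

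The 4 h groups also differed in how counts depended on gene length. Over 12620 genes that are no members, the slope of a library's log2 deviations on log2 coding length, fitted together with GC content and expressed per SD of length, averaged -0.15 in KO at 4 h (range -0.22 to -0.04) and 0.04 in WT at 4 h (range 0.00 to 0.07). These ranges do not overlap. With per-library offsets for GC content and coding length, an alternative added after the data were seen, the 4 h median of the members was 0.12, 50 of 77 were higher in KO and 10 (13%) had an unadjusted p under 0.05, against 18.2% of the 12697 genes in that fit. Rpl23 then had a log2 change of 0.19, Rps25 0.22, Rplp0 -0.42 and Rps18 0.62, the last with an unadjusted p = 0.021 in edgeR. Rps27l, which had the largest fitted change at 4 h without the offsets, had -0.03 with them. Rpl17 had 0.11 and Rpl37 had 0.26 with the offsets. Hepatocyte markers summed to between 55319 and 65188 CPM in WT at 4 h and between 44043 and 57395 CPM in KO at 4 h. Whether these differences have a part in the 4 h result was not tested beyond the offsets.

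A test of whether the genotype difference depended on time found no member. The interaction was called for 0 of 77 members in edgeR (0.00733% of all genes), and 0 had an unadjusted p under 0.05 (3.27% of all genes). DESeq2 called 0 and had 0 at an unadjusted p under 0.05. The lowest p-values were those of Rps18, Rpl26, Rpl7, Rpl23, Rpl30 and Rpl31, all with an adjusted p = 0.953 in edgeR.

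Of the tests made on all libraries, only those for a daily rhythm called members. By adjusted p in edgeR their share was above that of all genes in WT and below it in KO. In a fit of a 24 h cosine curve in each genotype, 18 of 77 members (23.4%) were called rhythmic in WT, where 16.3% of all genes were, and 9 of 77 (11.7%) in KO, where 17% of all genes were. At an unadjusted p under 0.05 the counts were 58 in WT (75.3%, against 31.5% of all genes) and 33 in KO (42.9%, against 34.3% of all genes). By this rule the KO share was also above that of all genes. DESeq2 called 22 and 14, for which the share of all genes is not given here. By subunit there were 9 large-subunit and 9 small-subunit genes in WT and 4 and 5 in KO, and 8 members were called in both genotypes.

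The rhythm itself was not shown to differ between genotypes. The test of equal curves called 0 of 77 members in edgeR (0.00733% of all genes) and 0 at an unadjusted p under 0.05 (2.66% of all genes), and DESeq2 gave 0 by either rule. The median amplitude, which is the height of the peak over the middle of the curve on the log2 scale, was 0.26 in WT and 0.24 in KO, or a peak 1.43-fold and 1.39-fold above the trough. Fitted peaks had a median of 10.2 h in WT and 9.92 h in KO. They fell between 8 and 12 h for 71 members in WT and 69 in KO, against 18.6% and 19.7% of all genes. Members share libraries, so these 77 peaks are not independent of each other.

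The counts of rhythmic members were unstable. Leaving out 1 library at a time gave between 6 and 37 in WT and between 1 and 34 in KO. The share of all genes called in those fits is not given here, so these movements may not be particular to the members. In WT the count fell to 11 or fewer without 0 h replicate 1 or 3, 8 h replicate 2, 3 or 4, 12 h replicate 1 or 2, or 20 h replicate 1 or 3, and rose to 29 without 12 h replicate 3, 37 without 20 h replicate 2 and 32 without KO 16 h replicate 3. In KO it fell to 5 or fewer without 0 h replicate 1, 3 or 4, 4 h replicate 4, 8 h replicate 3 or 4, 12 h replicate 1, 2 or 3, or 20 h replicate 2, and rose to 16 without 20 h replicate 3 and 34 without 16 h replicate 3. Without the 3 libraries that stand apart the counts were 7 in WT (15.2% of all genes) and 5 in KO (12.7% of all genes). With the 6 times as unordered levels they were 0 in WT (8.55% of all genes) and 4 in KO (9.73% of all genes).

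Rpl3 (chr15:79908211-79913836), next to the peptidyl transferase centre, had the lowest p in KO and was called in both genotypes, with adjusted p = 0.0172 in WT and 0.00337 in KO in edgeR. The KO libraries had 247, 299, 319 and 324 CPM at 0 h, and at 12 h they had 452, 564, 465 and 485 CPM. The WT libraries had 311, 360, 218 and 311 CPM at 0 h, and at 12 h they had 497, 380, 423 and 407 CPM. In neither genotype did the 2 times overlap. Such separation was not particular to called members. In KO, Rps18 had 432 to 506 CPM at 0 h and 581 to 819 CPM at 12 h and was not called (adjusted p = 0.260 in edgeR). The share of all genes so separated is not given here. The KO call of Rpl3 held in all 48 fits that left out 1 library (highest adjusted p = 0.0185 in edgeR). Its WT call was lost without WT 0 h replicate 3 or WT 12 h replicate 1 (adjusted p = 0.0597 in edgeR for the latter). The WT call was also lost without the 3 libraries that stand apart and with the 6 times as unordered levels. Its peak was fitted at 11.0 h in WT and 11.6 h in KO.

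Rps26 (chr10:128061586-128063562), which lies at the messenger RNA exit of the small subunit, had the lowest p in WT (adjusted p = 0.0127 in edgeR). Its group means in WT were 171 ± 24.4 CPM (SD, n = 4) at 0 h, 184 ± 26.4 at 4 h, 226 ± 30.9 at 8 h, 241 ± 34.2 at 12 h, 192 ± 46.3 (n = 5) at 16 h and 156 ± 28.2 at 20 h. In KO they were 159.9 ± 25.7 CPM (SD, n = 4) at 0 h, 229.7 ± 45.8 at 4 h, 217 ± 32.8 at 8 h, 252 ± 19.5 at 12 h, 164 ± 17.6 (n = 3) at 16 h and 187 ± 36.1 at 20 h. The peak was near the middle of the series in both, at 10.0 h in WT and 9.06 h in KO. Rps19, altered in Diamond-Blackfan anaemia, and Rpsa were next in WT with adjusted p = 0.0132 and 0.0157 in edgeR. The WT calls of Rps26, Rps19 and Rpsa held in all 48 fits that left out 1 library, and each was lost with the 6 times as unordered levels (adjusted p = 0.0725, 0.105 and 0.0909 in edgeR). In KO the call of Rps26 was lost without any 1 of 7 KO libraries, 0 h replicate 1 or 3, 8 h replicate 4, 12 h replicate 1, 2 or 3, or 20 h replicate 2.

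Rps6 (chr4:86500564-86503316) was called in both genotypes with the small amplitude of 0.20 in each, and its peak was fitted at 9.83 h in WT and 11.2 h in KO. Its KO libraries at 12 h lay between 312 and 329 CPM and those at 0 h between 191 and 243 CPM, without overlap, as in the uncalled Rps18. The KO call was close to the threshold (adjusted p = 0.0396 in edgeR) and was lost without any 1 of 10 libraries, the 4 of KO 0 h, the 4 of KO 12 h, KO 8 h replicate 4 and KO 20 h replicate 2. The other members with the lowest p were Rpl37 and Rps4x in WT and Rps4x, Rpl10 and Rps16 in KO, with adjusted p-values from 0.0192 to 0.0424 in edgeR. Rpl10 was the 1 member called in KO and not in WT, with adjusted p = 0.0837 in WT in edgeR.

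Rplp2 had the lowest p in the test of a rhythm difference, an unadjusted p = 0.306 with adjusted p = 1.00 in edgeR. Its fitted amplitude was 0.30 in WT and 0.04 in KO, but its level scattered widely within groups. At 16 h the WT libraries had 159, 102, 306, 322 and 133 CPM, and at 12 h they had 102, 108, 147 and 334 CPM. Rps9, Rplp1, Rps16, Rpl7a and Rpl14 followed, each with adjusted p = 1.00 in edgeR.

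**Figure D3:**
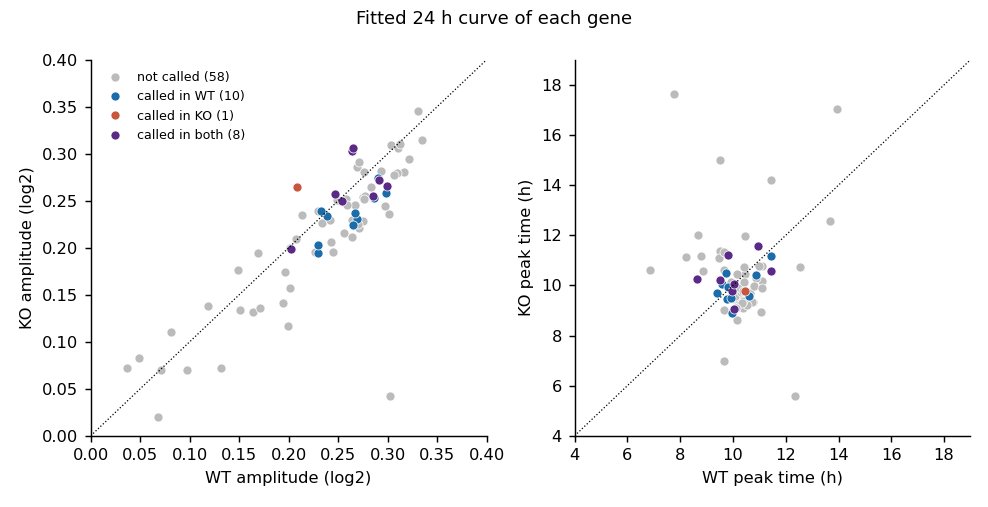
Fitted 24 h curve of each of the 77 genes, with the log2 amplitude in WT (horizontal) against KO (vertical) on the left and the peak time in hours on the right; colours mark which genotype the rhythm was called in and dotted lines mark equal values. Most peaks lie between 8 and 12 h in both genotypes, and the grey point at WT amplitude 0.30 and KO amplitude 0.04 is Rplp2.

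Most of the spread between libraries was shared by most members. After removing the mean of each of the 12 groups from the log2 CPM, the correlation between 2 members over the 48 libraries had a median of 0.65 over 2926 pairs, with quartiles of 0.15 and 0.87. Against the mean of the other 76, 50 members had r above 0.8, among them Rps20 (0.97) and Rps23 (0.96). Rpl26 and Rpl34 had r = 0.98 with each other. Normalisation, library preparation and tissue sampling are common to all genes of a library, and no p is given for these values.

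A minority did not follow. There were 15 members with r under 0.4, a grouping made after the values were seen, and 5 of them had a negative r: Rps2 (-0.25), Rplp2 (-0.19), Rps13 (-0.18), Rplp0 (-0.14) and Rpl28 (-0.10). Rpl15 and Rps13 had r = -0.65 with each other, and Rps2 and Rpl5 had r = -0.66. Both stalk genes Rplp0 and Rplp2 fell in this minority, whereas Rplp1 had r = 0.84. Rpl3, called rhythmic in both genotypes, was also among the 15 (r = 0.09) and was the only 1 of them called in WT. The coding sequences of the 15 had a median GC content of 56.0% and those of the other 62 a median of 51.5%. At 4 h the 15 had a median log2 change of -0.17, and the other 62 had 0.47.

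The promoter words differed in share between these sets, with few genes in the smaller one. The pyrimidine run stood in 39 of 44 matched genes of the larger set (88.6%) and in 9 of 12 of the smaller (75%). CCGGAAG stood in 21 of 44 (47.7%) and in 2 of 12 (16.7%). TATAAA, searched in the same way on both strands, stood in 3 of 44 (6.82%) and in 3 of 12 (25%), against 15.7% of all genes with a window. No test was made of these shares, since the sets were drawn from the values.

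**Figure D4:**
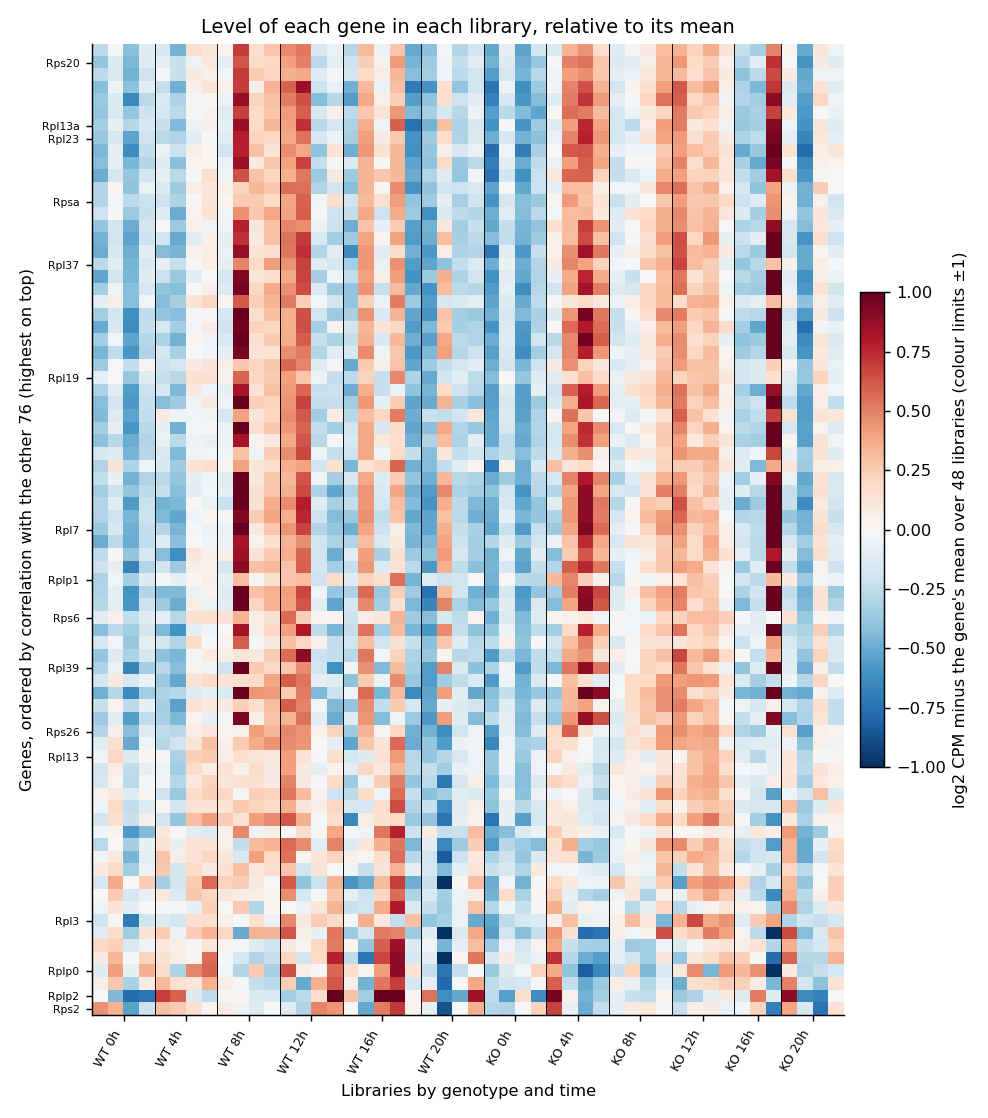
Level of each of the 77 genes (rows, ordered by correlation with the other 76, with 16 of them labelled) in each of the 48 libraries (columns, by genotype and time), as log2 CPM minus the gene's mean, with colours limited to ±1. Single libraries such as the second of WT 8 h and the third of KO 16 h are high for most genes in the upper rows, and the lowest rows run against them.

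The shared level moved with the length dependence of a library. The slope on log2 coding length described above had r = -0.79 and rho = -0.81 with the mean log2 CPM of the members over 48 libraries, and r = -0.74 without the 2 libraries farthest from the median slope. Within WT it was r = -0.80 (25 libraries) and within KO r = -0.81 (23 libraries), and with group means removed r = -0.80. The slope on GC content had r = -0.62 with the member mean. For the 15 weakly correlated members the length slope had r = 0.15 and the GC slope r = 0.53. Whether the length dependence has a part in the shared level was not tested beyond the offsets described next.

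Library by library, the 3 lowest length slopes were -0.25 in KO 16 h replicate 3, -0.22 in WT 8 h replicate 2 and -0.22 in KO 4 h replicate 3. These libraries gave 3.91%, 4.06% and 3.51% of their counts to the members. With the GC and length offsets the median pair correlation was 0.50 and 27 members had r above 0.8 with the rest. The offsets left the median amplitude at 0.20 in WT and 0.19 in KO, with median peaks at 10.4 h and 10.7 h, and 21 members (27.3%) in WT and 16 (20.8%) in KO were then called rhythmic, against 22.5% and 19.8% of all genes in that fit.

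**Figure D5:**
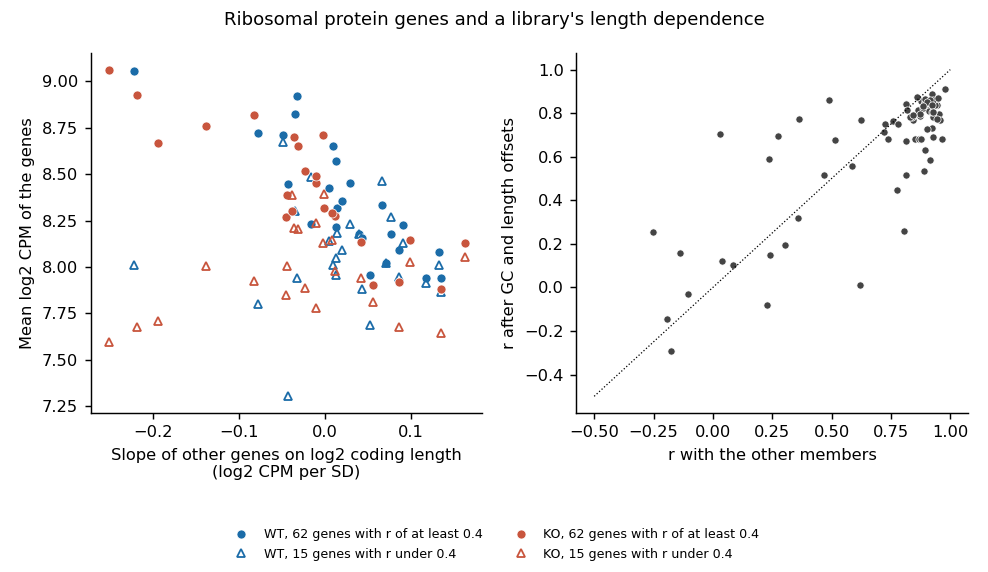
Left: mean log2 CPM of 62 strongly (circles) and 15 weakly (triangles) correlated ribosomal protein genes in each library (vertical) against that library's slope of other genes on log2 coding length (horizontal, log2 CPM per SD of length). Right: r of each gene with the other members before (horizontal) and after (vertical) GC and length offsets; circles fall from left to right in WT and KO alike, and most genes at r above 0.8 lie under the dotted line of equality.

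Other genes of the translation machinery were set beside the members. Ribosomal proteins that the symbol rule does not take, 6 genes among them Fau and Gnb2l1 (RACK1), had 0 calls across times in edgeR. Fau was lowest in p (log2 change -0.13, adjusted p = 0.467 in edgeR). The 4 h median of the list was 0.22, with 5 of the 6 higher in KO and Fau at -0.28. The mean of the list had r = 0.94 with the member mean over 48 libraries with group means removed. Gene by gene, r with the members ran from 0.19 for Fau to 0.91 for Rpl36al. Of 29 translation factors, 0 were called across times and the 4 h median was 0.10, with Eif4a2, a helicase of the cap-binding complex, lowest in p (log2 change 0.31 ± 0.11 (SE), adjusted p = 0.144 in edgeR). Of 38 ribosome biogenesis genes, 0 were called, the 4 h median was -0.29, with Heatr1, a factor of ribosomal RNA transcription, lowest in p (0.22 ± 0.07 (SE), adjusted p = 0.111 in edgeR). Their median coding length was 1634 nucleotides. Of 27 genes of mTOR signalling and translation control, 0 were called, and Deptor, an mTOR inhibitor, was lowest in p (0.17 ± 0.06 (SE), adjusted p = 0.182 in edgeR). How these lists moved with the members depended on the summary: for biogenesis genes r was -0.29 with the mean of their log2 CPM and 0.66 with the log2 of their summed CPM, and for the mTOR list it was -0.66 and -0.06.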

How the data were processed

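Livers of 25 WT and 23 KO mice were sequenced from poly-A RNA with a kit that does not mark strand, per the labels' protocols. The deposited values are whole-number read counts per gene with nearly equal totals. Whether reads were reduced to a common depth before deposit is not known. CASAVA and STAR 2.4.1d and the build mm9 are named in the submitters' processing notes; no source used here names the counting tool. Alb was left out of totals. Genes were kept by filterByExpr (minimum count 10, minimum total 15), scaled by TMM and tested in edgeR 4.0.16 (R 4.3.3) with quasi-likelihood tests on 12 group means, or on a cosine and sine of 24 h per genotype, adjusted by Benjamini-Hochberg over all genes tested at 0.05. CPM values carry the TMM factors, except those that decide membership, and correlations used log2 CPM with a prior count of 2. Amplitudes and peaks are least-squares fits to log2 CPM. Coding length and GC content came from GENCODE M21 by gene ID, or by symbol where the ID bears another name. DESeq2 1.42.0 was an alternative, and the offsets used mgcv 1.9.3. The fitting code was tested on simulated data. Members, gene lists and the rule for named genes were chosen with earlier results of these data known. The genes named are set by role (stalk, 5S particle, ubiquitin fusion, S6 kinase target, paralog pairs) and by rank: the 5 largest changes in each direction, the 6 lowest p-values of each other test, the 5 highest and lowest levels, the 3 genes on each side of the membership minimum, and up to 3 genes of each list by p. Rpl17, Rpl37, Rps18, Rps25, Rps27l, Rps20, Rps23, Rps2, Mrps9, the genes with a printed E-box and the pairs of extreme correlation were named after their values were seen. A few genes that these rules take are not reported here. The labels do not say that replicate numbers mark litters or days, so p-values measure the spread between these animals. Replicate numbers were checked for pairing: over the 2000 most variable genes, 14 of 23 same-numbered pairs had r over 0.1 (range -0.33 to 0.51). No 2 libraries agreed within sampling noise (lowest chi-square per degree of freedom 20.7).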

Additional observations from a re-analysis of the deposited data

Results flagged for a closer look

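The 11 groups of 4 or 5 libraries were each examined for 7 quantities, the share of all counts and the CPM of 6 named genes, and 1 of these 77 checks found a library far from the others, where chance alone would give about 1 in 20. Rps6 in KO 8 h replicate 4 stood at 307.2 CPM, and the other 3 libraries of that group lay between 254.8 and 261.7 CPM.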

How the results depend on the processing

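Spread between libraries of a group limits small differences: a member's log2 CPM had a median SD of 0.32 within groups, and its change across times a median standard error of 0.09. The counts of 0 members called across times, with an interaction, or with different rhythms between genotypes were the same under every alternative run. The count of 0 at single times was 0 to 23 when 1 library was left out (23 without KO 4 h replicate 1) and 0 under the others. Members rhythmic in WT (18 as reported, where 16.3% of all genes were called) numbered 8 without the filter on low counts. They numbered 7 without the 3 libraries that stand apart (15.2% of all genes) and 0 with the 6 times as levels (8.55% of all genes). With 1 library left out they numbered 6 to 37. Members rhythmic in KO (9 as reported, where 17% of all genes were called) numbered 5 without scaling factors, 2 without the filter and 20 without both 16 h groups. They numbered 5 without the 3 libraries (12.7% of all genes), 4 with the 6 times as levels (9.73%) and 16 with GC and length offsets (19.8%). In DESeq2 they numbered 14, and with 1 library left out 1 to 34. Where no percentage stands, the share of all genes called is not given here, so those movements may not be particular to the members. The 4 h median of 0.36 was 0.12 with the offsets, which were added after the data were seen, and the 16 h median of 0.06 ran from -0.26 to 0.24 with 1 library left out. The change of Rpl39 across times turned to -0.11 with the offsets (adjusted p = 0.43 in edgeR). Same-numbered libraries correlated at 4 h (r from 0.24 to 0.46 in all 4 pairs). With a replicate block the member calls stayed 0 across times, at single times and for the interaction. In that fit 29 members had an unadjusted p under 0.05 at 4 h, where the main fit without a block had 32. The count of the main fit became 0 without KO 4 h replicate 3 and 12 without scaling factors. For these 3 alternatives the share of all genes is not given here either. The causes of these movements were not tested.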

Other observations

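The ribosome of mitochondria, which makes a few proteins of the respiratory chain and is encoded by a separate set of nuclear genes, was measured in the same libraries through 73 genes with Mrpl and Mrps symbols. None of the 73 was called between genotypes across times in edgeR (1.4% of all genes), and 8 had an unadjusted p under 0.05 (17.1% of all genes). Of these 8, Mrpl49 had the lowest p (log2 change 0.14, adjusted p = 0.14 in edgeR). At 4 h, 53 were higher in KO with a median log2 change of 0.27. At that time 0 were called (0.0366% of all genes) and 26 had an unadjusted p under 0.05 (23.3% of all genes). Rhythm was called for 21 of 73 in WT (16.3% of all genes) and 17 of 73 in KO (17% of all genes), and the median WT peak was 8.98 h. Mrps9, on the small subunit of that ribosome, had the lowest p for rhythm in both genotypes, with adjusted p = 3.82e-05 in WT and adjusted p = 0.000213 in KO in edgeR. The mean of these genes had r = 0.69 with the mean of the cytosolic ribosomal protein genes over 48 libraries with group means removed, and their median coding length was 576 nucleotides.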
